A study of Caenorhabditis elegans with 14 samples.

Results

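The 7 genes described here, Y41E3.5, R102.2, clip-1, gakh-1, gst-20, F44G4.7 and tag-123, differed in the same direction between daf-19 mutant worms and their controls in adults and in first-stage larvae (L1). They are listed genes, matched by symbol in the array's probe-to-gene table, and 9 of the 22548 probe sets measure them, among 17118 genes in all. In the fit used here they were also exactly the genes that passed an adjusted p threshold of 0.05 with the same sign in both genotype comparisons. They were chosen by their measured mutant minus control differences in adults and at L1, so these differences are given as a description, without p-values. The samples were whole Caenorhabditis elegans on an Affymetrix array, and the study, by its title, is about the roles of daf-19 in neurons with and without cilia. Adult daf-19 mutants (3 arrays) were set against adult controls (3 arrays), and L1 daf-19 mutants (4 arrays) against L1 controls (4 arrays). The mutant genotype is labelled daf,19,daf-12 and the control genotype daf-12, so every animal carried a daf-12 mutation, including the controls that the labels also call DAF-19 wild type. The daf-19 allele is not named. The protocol puts the adults 50 hours past L4, while the titles call them young adults. The replicates are called biological, but no label says that they were separate cultures, so p-values measure the spread between these samples. In whole worms, fewer cells of a type and less RNA per cell cannot be told apart.

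DAF-19 is an RFX transcription factor, a family of DNA-binding proteins that recognise X-box motifs in promoters. In the worm it is known for switching on the genes that build sensory cilia, which are found on a subset of neurons. The gene daf-12 encodes a nuclear hormone receptor that acts in dauer formation and developmental timing. Among the 7 genes, clip-1 encodes a protein related to mammalian CLIP-170, which tracks the growing ends of microtubules. The gene gakh-1 is named as a homolog of cyclin G-associated kinase, which in mammals acts in the uncoating of clathrin-coated vesicles. The gene gst-20 encodes a glutathione S-transferase, an enzyme class that joins glutathione to reactive compounds. The prefix of tag-123 stands for a temporarily assigned gene name. RefSeq (assembly WBcel235) lists Y41E3.5 as a pseudogene and the other 6 as protein-coding genes.

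Values are the deposited log2 signals. Array medians lay between 5.91 and 6.02 in adults and between 4.73 and 4.76 at L1, and the stages appear to have been normalized apart, so levels set across stages are given without a test. The 3' minus 5' signal of the Gapdh control probe sets, a measure of RNA and labelling quality, ran from -0.54 to -0.39 in adult mutants and from -0.44 to -0.36 in adult controls. At L1 it ran from 3.83 to 4.12 in mutants and from 3.16 to 3.83 in controls. Adult control array 1 stood apart from the other adult controls, and limma's array weights gave it 0.520, against 5.03 and 1.00 for adult control arrays 2 and 3. That weight was not the lowest: L1 mutant arrays 1 and 2 had 0.468 and 0.472, and L1 control array 1 had 0.532. Both probe sets of daf-19 were lower in mutants of each stage with no overlap of arrays. The dimmer one differed by -0.64 in adults (SE 0.12, limma adjusted p = 0.0163) and by -0.69 at L1 (SE 0.10, adjusted p = 0.00281), and the brighter one by -0.56 (adjusted p = 0.105) and -0.70 (adjusted p = 0.0125). The 3 probe sets of daf-12 did not pass at either stage, with differences between 0.04 and 0.18 in adults and between 0.05 and 0.40 at L1.

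Of the genes that fell, Y41E3.5 and R102.2 had the largest differences. Probe sets with names ending in _x_at or _s_at, both of daf-19 among them, are of a class that can match more than 1 transcript. The single probe set of Y41E3.5 (172243_x_at) read 4.27, 4.50 and 4.73 in adult mutants, against 5.62, 6.97 and 7.17 in adult controls. At L1 it read 5.46, 6.05, 5.03 and 5.67 in mutants, against 8.46, 8.19, 8.33 and 8.73 in controls. The groups did not overlap at either stage, and adult control array 1 was the array nearest to the mutants. Over all genes, mutant and control arrays failed to overlap for 13.7% in adults and 4.56% at L1, and the 7 genes were picked for such differences. The fitted differences of Y41E3.5 were -2.09 in adults (SE 0.33, 4.25-fold) and -2.88 at L1 (SE 0.29, 7.34-fold). In 2 of the 3 adult mutants the signal lay below the array's lower quartile, so it was close to the dim end of the scale there.

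R102.2, a protein-coding gene, read 6.50, 6.28 and 6.38 in adult mutants (177365_at), against 6.98, 7.97 and 8.24 in adult controls. At L1 it read 7.91, 7.96, 7.47 and 7.87 in mutants, against 10.70, 10.51, 10.61 and 10.95 in controls. Here too adult control array 1 was the lowest control, 0.48 above the highest adult mutant, whereas the nearest L1 arrays were 2.55 apart. The differences were -1.34 in adults (SE 0.24, 2.54-fold) and -2.89 at L1 (SE 0.21, 7.41-fold). Over all genes, R102.2 had the most negative L1 difference and Y41E3.5 followed at rank 2, and in adults they stood at ranks 31 and 4.

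The microtubule gene clip-1 was measured by a pair of probe sets. The brighter one (173748_at) read 6.05, 5.93 and 6.29 in adult mutants, against 6.51, 7.25 and 7.52 in adult controls, and 10.34, 10, 10.30 and 10.31 in L1 mutants, against 11.54, 11.46, 11.59 and 11.56 in L1 controls. The L1 groups were tight and 1.12 apart, while in adults only 0.22 separated adult control array 1 from the nearest mutant. The dimmer one (189451_s_at) read 5.43, 5.19 and 5.05 in adult mutants, against 5.67, 6.00 and 6.22 in adult controls. In L1 mutants it read 5.56, 5.35, 5.85 and 5.62, against 6.94, 7.05, 7.20 and 7.09 in L1 controls. Both probe sets thus gave lower signal in mutants at each stage with no overlap, by -1.0 (SE 0.19) and -0.74 (SE 0.15) in adults and by -1.30 (SE 0.17) and -1.48 (SE 0.13) at L1.

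The kinase homolog gakh-1 showed the smallest and most even fall. Its probe set (192321_s_at) read 7.66, 7.57 and 7.56 in adult mutants, against 8.32, 8.0 and 8.28 in adult controls. At L1 it read 7.02, 6.96, 6.87 and 7.08 in mutants, against 7.61, 7.47, 7.65 and 7.49 in controls. The groups did not overlap, and adult control array 1 was the control farthest from the mutants for this gene. The differences were -0.60 in adults (SE 0.10, 1.52-fold) and -0.57 at L1 (SE 0.08, 1.49-fold).

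Among the genes that rose, gst-20 had the largest adult difference. Its probe set (173938_s_at) read 9.34, 9.49 and 9.80 in adult mutants, against 8.21, 7.92 and 7.73 in adult controls. At L1 it read 8.16, 8.47, 7.98 and 7.86 in mutants, against 7.05, 6.77, 7.15 and 7.20 in controls. The nearest arrays of the groups were 1.13 apart in adults and 0.66 apart at L1. The rise was 1.59 in adults (SE 0.17, 3.01-fold) and 1.07 at L1 (SE 0.15, 2.11-fold). When each array's Gapdh 3' minus 5' value entered the fit, the L1 difference of gst-20 was 0.78.

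F44G4.7 read 6.23, 6.01 and 6.07 in adult mutants (177552_at), against 5.19, 5.30 and 5.11 in adult controls. At L1 it read 5.08, 5.41, 5.54 and 5.35 in mutants, against 4.32, 4.54, 4.71 and 4.36 in controls. The adult groups were 0.71 apart and the L1 groups 0.37 apart at their nearest arrays. The differences were 0.90 in adults (SE 0.13, 1.87-fold) and 0.86 at L1 (SE 0.11, 1.82-fold).

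A pair of probe sets measured tag-123. The brighter one over all arrays (180161_at) read 9.46, 9.37 and 9.31 in adult mutants, against 8.84, 8.72 and 8.37 in adult controls, and 7.72, 7.36, 7.55 and 7.23 in L1 mutants, against 6.61, 6.52, 6.32 and 6.40 in L1 controls. The other (174891_s_at) read 7.28, 7.17 and 7.62 in adult mutants, against 6.54, 6.85 and 6.32 in adult controls. In L1 mutants it read 8.15, 7.91, 8.23 and 8.08, against 7.25, 6.88, 6.87 and 6.71 in L1 controls. No groups overlapped in either probe set, and the differences were 0.74 (SE 0.14) and 0.79 (SE 0.16) in adults and 1.00 (SE 0.12) and 1.17 (SE 0.14) at L1. The plot of signals by array shows these values for all 9 probe sets.

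**Figure D1:**
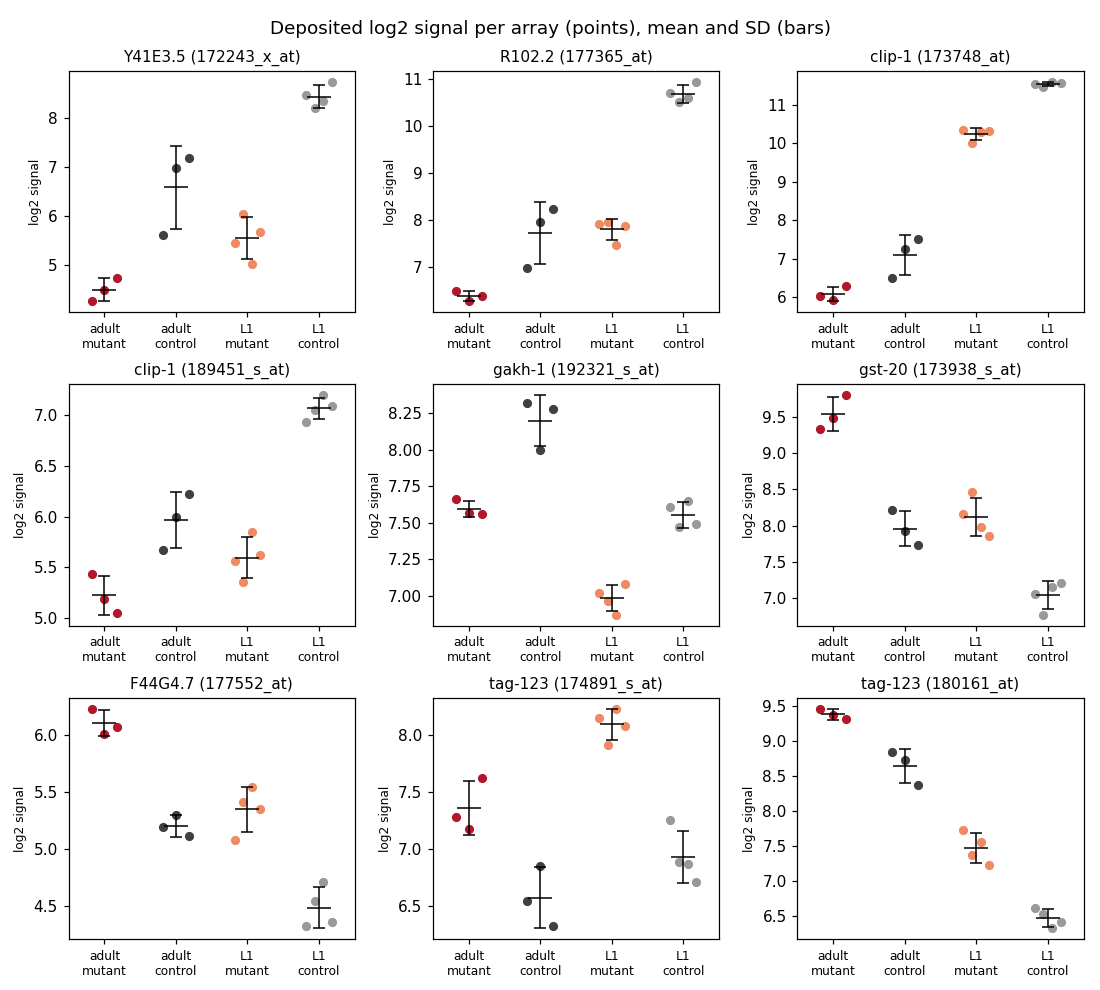
Deposited log2 signal of the 9 probe sets on each of the 14 arrays (points), with the mean and SD of each group (bars); each panel has its own vertical axis. No mutant array reached a control array of its stage in any panel. Adult control array 1 (the left point of its group) was the control nearest to the mutants for Y41E3.5, R102.2 and clip-1. The same held for gst-20 and for tag-123 in 180161_at, but not for tag-123 in 174891_s_at, F44G4.7 or gakh-1. The genes were picked for these differences. Over all genes, arrays failed to overlap for 13.7% in adults and 4.56% at L1.

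The 7 genes differed in how evenly the stages matched. For gakh-1 and F44G4.7 the adult difference minus the L1 difference was -0.03 (SE 0.13) and 0.04 (SE 0.17). R102.2 fell less in adults than at L1, by 1.55 (SE 0.32), so that its adult difference was 46.5% of its L1 difference on the log2 scale. The same quantity was 0.79 (SE 0.44) for Y41E3.5, and for clip-1 it was 0.30 (SE 0.25) in one probe set and 0.73 (SE 0.20) in the other. The genes that rose split: gst-20 differed more in adults, by 0.52 (SE 0.23), whereas tag-123 differed less, by -0.27 (SE 0.18) and -0.38 (SE 0.21). These differences are made of the values that chose the genes and are not tested.

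**Figure D2:**
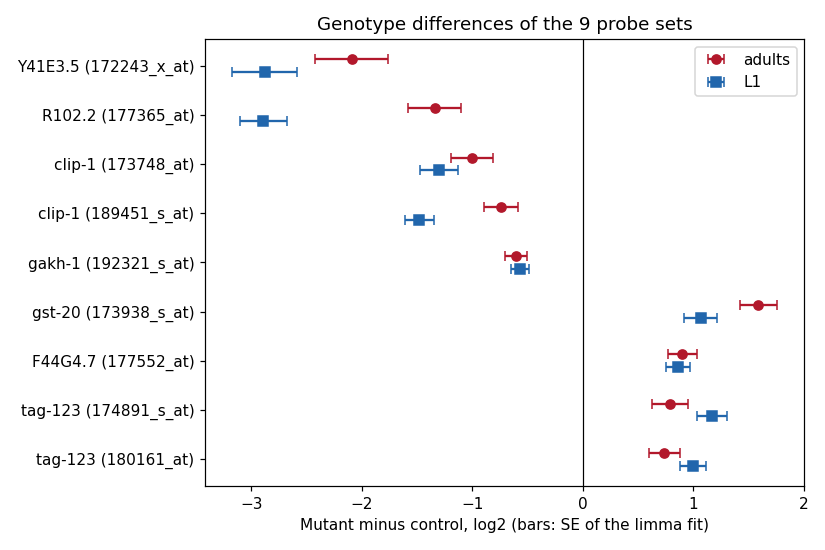
Mutant minus control difference (log2, horizontal axis) of each probe set in adults (circles) and at L1 (squares), with the standard error of the limma fit as bars. All 5 probe sets of Y41E3.5, R102.2, clip-1 and gakh-1 lie below 0 and all 4 of gst-20, F44G4.7 and tag-123 above 0; the stages lie farthest apart for R102.2.

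For 3 of the genes that fell, the adult difference depended on which adult controls were read. Adult control array 1 lay 56.4% of the way from the mean of the other adult controls to the mutant mean for Y41E3.5, 65.5% for R102.2, and 67.6% and 49.6% for the probe sets of clip-1. For gst-20 the share was 22.4%, for the probe sets of tag-123 -5.83% (174891_s_at) and 35.3% (180161_at), for F44G4.7 -1.67% and for gakh-1 -33.1%, a negative share meaning that the array lay on the far side of the mean of the other adult controls. Over the 182 genes called in adults the median share was 23.9%, and 68.7% of these genes had the array on the mutants' side. Without adult control array 1 the adult differences were -2.57 for Y41E3.5, -1.72 for R102.2, -1.29 for clip-1, -0.54 for gakh-1, 1.72 for gst-20, 0.90 for F44G4.7 and 0.83 for tag-123.

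On the epidermis and cuticle list, too, adult control array 1 lay nearer to the mutants than the other adult controls did. The median over 18 such genes of the signal minus its stage mean was -0.28, -0.18 and -0.17 in adult mutants, against -0.14, 0.29 and 0.45 in adult controls 1, 2 and 3. At L1 it was -0.15, 0.03, -0.22 and -0.21 in mutants, against 0.11, 0.12, 0.08 and 0.13 in controls. Their summed signal (log2) ran from 14.52 to 14.97 in adult mutants, against 14.88 to 15.66 in adult controls, and from 15.06 to 15.33 in L1 mutants, against 15.43 to 15.59 in L1 controls. Early embryo genes separated the adult genotypes without that order, at -0.18, -0.08 and -0.18 in mutants, against 0.16, 0.19 and 0.15 in controls. The position of adult control array 1 was not particular to cuticle genes. Germline and oocyte genes read 0.11, 0.03 and 0.04 in adult mutants, against 0.10, -0.12 and -0.15 in controls. Microtubule plus end and dynein genes read 0.03, 0.02 and 0.02, against 0.05, -0.09 and -0.09. Neuron genes lacked it, at 0.01, -0.01 and 0.07, against -0.10, 0.04 and 0.04. Whether cuticle or embryo content plays a part in the differences of the 7 genes was not tested.

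**Figure D3:**
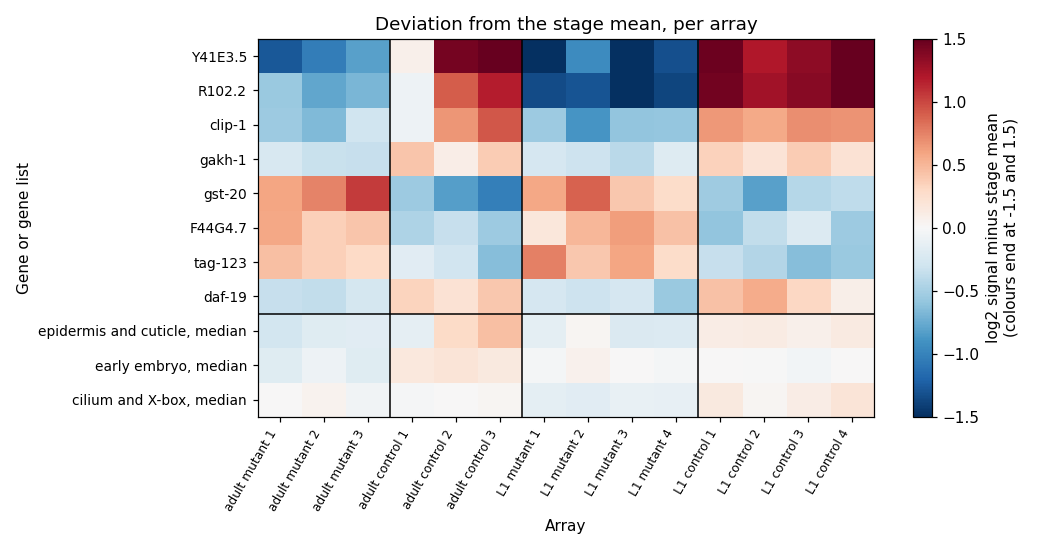
Signal minus the stage mean (log2, colour) on the 14 arrays (columns) for the 7 genes and the dimmer daf-19 probe set (rows), and below the line the median of the same quantity over the genes of 3 lists. Adult control array 1 is near 0 for Y41E3.5, R102.2 and clip-1 and reads -0.14 for epidermis and cuticle, while the other adult controls read 0.29 and 0.45 there.

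Few genes passed the threshold at both stages, a count that depends on the number of arrays and on the processing. In adults 182 genes (1.06%) passed in either direction, and at L1 208 (1.22%), while 8.09% and 10.5% of genes had an unadjusted p under 0.05. The same sign at both stages was seen for 7 genes (0.0409%), which are 3.85% of the adult calls and 3.37% of the L1 calls. Of these, 4 were lower (0.0234% of genes) and 3 higher (0.0175%) in mutants. Since the rule used these contrasts, the counts say nothing further about the 7 genes. The adult difference minus the L1 difference passed its own test for 0.976% of genes. With the replicate number as a block at L1, where same-numbered arrays deviated together, 498 genes passed at L1 and 12 at both stages with the same sign, all 7 genes among them. Opposite signs at both stages were seen for 3 genes (0.0175%), srp-3, F44A2.3 and glb-1, each higher in adult mutants (0.76, 0.78 and 0.93) and lower in L1 mutants (-0.67, -0.68 and -0.41). Without regard to the threshold, mutant and control arrays failed to overlap for 13.7% of genes in adults and 4.56% at L1. They did so at both stages with the same direction for 82 genes (0.479%), and with opposite directions for 73 genes (0.426%). Of the genes called lower at L1, 54.9% had a negative adult difference, and of the 66 called higher there, 60.6% had a positive one. Of those called lower in adults, 53.8% had a negative L1 difference, whereas of the 63 called higher in adults 38.1% had a positive one. The share of each sign over all genes is not given here, so these shares have no reference. Median adult differences were -0.02 for genes called lower at L1 and 0.02 for those called higher, beside 0.03 over all genes. Median L1 differences were -0.01 for genes called lower in adults and -0.06 for those called higher, beside 0.01.

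**Figure D4:**
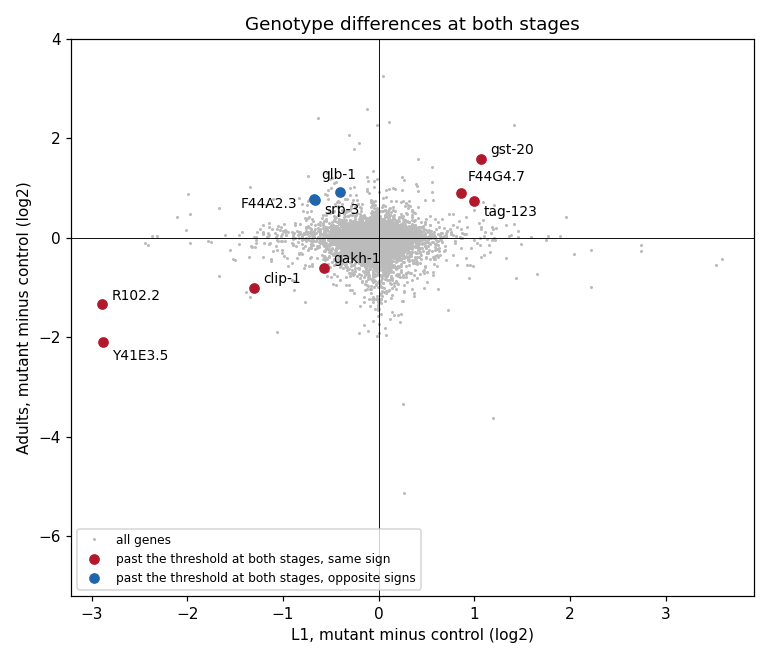
Mutant minus control difference at L1 (horizontal axis, log2) against that in adults (vertical axis, log2) for 17118 genes (grey points). The 7 genes past the threshold at both stages with the same sign and the 3 with opposite signs are named; 182 genes were called in adults and 208 at L1.

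The threshold divides genes that lay close together. The member nearest to it was clip-1, whose larger limma adjusted p was 0.0194, and the nearest genes outside were oac-59 (0.0516), C14C6.5 (0.0523), the collagen gene col-159 (0.0547) and Y48C3A.20 (0.0555), all lower in mutants at both stages. The dimmer daf-19 probe set itself passed at both stages. It is outside the 7 because each gene was represented by its brightest probe set.

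Likeness was measured between the signals of a pair of probe sets, each centred on its stage mean. The measure was the mean absolute difference over the 14 arrays. Each stage mean covered both genotypes, so the mutant minus control differences stayed in the measure. The members were chosen for those differences, so members with differences of like size come out near each other. The measure therefore adds little to the differences already given. Y41E3.5 and R102.2 were each other's nearest gene, at 0.23, and their own mean deviations from the stage means were 1.27 and 1.12. F44G4.7 and tag-123 were likewise each other's nearest, at 0.17. The nearest probe set to gakh-1 was the dimmer one of daf-19, at 0.12, followed by C27A7.5 and col-174 at 0.14. Next to clip-1 came the collagen genes col-133 (0.22) and col-159 (0.23) and the X-box gene xbx-9 (0.25). The 3 nearest to gst-20 were asm-3 (0.28), which encodes an acid sphingomyelinase, F44G4.7 (0.30) and tag-123 (0.31). Behind tag-123, F44G4.7 had dyf-11 (0.17), an intraflagellar transport gene, and the tubulin gene tbb-6 (0.19). After F44G4.7, tag-123 had tth-1, named for its thymosin repeats, and ppt-1, both at 0.23. Y41E3.5 was also near clec-194 (0.57) and col-159 (0.64), and R102.2 near clec-194 (0.42) and C18F10.2 (0.45). Several of these differed at 1 stage alone as measured: clec-194 had -0.11 in adults (adjusted p = 0.999) and -2.45 at L1 (SE 0.13, adjusted p = 1.1e-07), and C18F10.2 had 0.03 and -2.37. In contrast, asm-3 had 1.59 in adults (SE 0.25, adjusted p = 0.00503) and 0.41 at L1 (adjusted p = 0.597). Genes found by likeness were picked for signals near those of the members. Their limma p-values rest on the same signals and are given as a description.

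Levels across the stages are described relative to each array's median, because the deposited values of all genes were higher in adults by a median of 0.91 in mutants and 0.90 in controls. On that scale the adult minus L1 difference of clip-1 (173748_at) was -5.35 in mutants and -5.67 in controls, and that of its other probe set -1.57 and -2.33. R102.2 gave -2.62 in mutants and -4.19 in controls, and Y41E3.5 -2.25 and -3.07. These 3 genes were lower in adults on the deposited, the median-centred and the jointly quantile-normalized scale. For gst-20, F44G4.7 and gakh-1 the direction turned with the scaling: in controls gakh-1 gave 0.65 as deposited, -0.58 relative to the median and -1.28 after joint quantile normalization. The probe sets of tag-123 disagreed across stages although they agreed between genotypes. Relative to the median, 180161_at gave 0.71 in mutants and 0.95 in controls and 174891_s_at -1.94 and -1.58, and after joint quantile normalization 180161_at turned to -0.11 in mutants. The Gapdh 3' minus 5' signal also differed between the stages, at -0.54 to -0.36 in adults and 3.16 to 4.12 at L1. None of these scalings takes that into account, and its part in the stage differences was not tested.

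Of the 44 other glutathione S-transferases measured, limma called 0 in adults (10 at an unadjusted p under 0.05) and 2 at L1 (10 at unadjusted p), both lower: gsto-1 (-1.11, SE 0.19, adjusted p = 0.00857) and gst-41 (-0.96, SE 0.19, adjusted p = 0.0242). The median difference was 0.13 in adults and -0.18 at L1, beside 0.03 and 0.01 over all genes. The L1 calls were 4.55% of the list, beside 1.22% of all genes. With the replicate block at L1, 498 of all 17118 genes passed there, against 208 without it. Of the 44, 6 were then called, all lower, with gst-11, gst-17, gst-33 and gsto-2 added. Genes around SKN-1, a stress response regulator known to act on glutathione S-transferase genes, gave 0 of 21 called in adults (3 at unadjusted p) and 3 lower at L1 (8 at unadjusted p), with the block as without. These were ugt-13 (-1.99, adjusted p = 0.000183), a UDP-glucuronosyltransferase gene, sod-1 (-0.44, adjusted p = 0.0332), a superoxide dismutase gene, and cyp-35B1 (-1.67, adjusted p = 0.0432), a cytochrome P450 gene.

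The share called over all genes was 1.06% in adults and 1.22% at L1. With the replicate block at L1, 498 of all 17118 genes passed there, against 208 without it. Among 33 genes of microtubule plus ends and dynein regulation, limma called 0 in adults (0 at unadjusted p) and 0 at L1 (6 at unadjusted p), with medians of 0.06 and 0.11. The gene nud-1, a dynein regulator, came closest (0.31 at L1, SE 0.07, adjusted p = 0.0516), and dnc-2, a dynactin subunit, read -0.45 (adjusted p = 0.322). With the replicate block at L1, 3 of the 33 passed there, namely nud-1 (adjusted p = 0.031), dnc-2 (adjusted p = 0.0194) and dylt-1, a dynein light chain gene. Of 29 clathrin and endocytosis genes, 0 were called in adults (3 at unadjusted p), and dyn-1, which encodes dynamin, rose at L1 (0.59, SE 0.11, adjusted p = 0.0192), the 1 call there with the block too. Of 58 cilium and X-box genes, 0 were called in adults (5 at unadjusted p, median 0.01), and 20 fell and 2 rose at L1 (36 at unadjusted p, median -0.24), which is 37.9% of the list. With the block, 22 fell and 4 rose. The smallest L1 p-values belonged to the dynein heavy chain gene che-3 (-1.75), xbx-9 (-1.52), ifta-1 (-1.30) and ift-139 (-1.13), which read -0.08, -0.43, 0.01 and -0.11 in adults.

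None of the 7 genes is on the lists of tissue and stage markers. Since only the 7 were called at both stages with the same sign, no gene on these lists could be. Early embryo genes fell in adults, 8 of 18, with pes-10 (-1.04), vet-6 (-1.34), skr-10 (-0.77) and skr-9 (-1.08) at the smallest p-values, and limma called 0 at L1 (0 at unadjusted p). On the epidermis and cuticle list 0 of 18 were called in adults (10 at unadjusted p), and 1 fell at L1 (8 at unadjusted p), the collagen gene col-34 (-0.65, adjusted p = 0.0429). The median difference of that list was below 0 at both stages, at -0.38 in adults and -0.24 at L1. With the replicate block at L1, under which 498 of all 17118 genes passed there, 5 genes of that list fell. The cuticle genes rol-6, bli-2, lon-3 and col-12 joined col-34. At L1 the intestinal protease gene cpr-6 rose (1.15, adjusted p = 0.000231), as did the sperm gene spe-4 (0.53, adjusted p = 0.0206). Neither called gene was called in adults, where the intestine (14 genes) and sperm (16 genes) lists had 1 and 0 at unadjusted p. Lists of yolk (5 genes), germline (24), muscle (14), neuron (20) and reference genes (8) had 0 called at either stage by limma, but with the replicate block at L1 pos-1 of the germline list rose (adjusted p = 0.017) and eat-4 of the neuron list fell (adjusted p = 0.0253). At unadjusted p these lists had 1, 1, 1, 0 and 1 in adults and 0, 1, 0, 1 and 0 at L1. The lowest p on each belonged to vit-1 (-0.22 in adults) and vit-6 (-0.11 at L1), pos-1 (0.55 at L1) and mex-6 (0.25 in adults), and myo-3 (0.39 in adults) and hlh-1 (-0.34 in adults). Among neuron and reference genes it belonged to eat-4 (-0.37 at L1) and unc-31 (-0.21 at L1), and to iscu-1 (0.17 in adults) and tba-1 (0.21 at L1). Yolk genes marked the stages, with a summed signal (log2) of 16.43 to 16.52 in adult mutants and 16.43 to 16.51 in adult controls, and of 6.58 to 6.81 in L1 mutants and 6.65 to 6.80 in L1 controls.

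The 7 genes lay on 4 chromosomes in the RefSeq annotation: gst-20 and F44G4.7 on II, which also carries daf-19, Y41E3.5 and R102.2 on IV, gakh-1 and tag-123 on X and clip-1 on III. Between daf-19 and F44G4.7 there were 241 measured genes, and between daf-19 and gst-20 606, of 3014 on that chromosome. Of the 42 nearest measured neighbours, 3 on each side of each gene, limma called 0 at L1, with the replicate block as without, and 1 in adults, F08F1.3 beside tag-123, which fell (-0.41, SE 0.08, adjusted p = 0.0249). The gene next to tag-123 is tth-1, already named for the likeness of its pattern. Its nearest probe set in pattern (182513_at) read 9.65, 9.57 and 9.44 in adult mutants, against 8.54, 9.14 and 9.39 in adult controls, and 7.41, 7.43, 7.21 and 7.52 in L1 mutants, against 6.67, 6.72, 6.53 and 6.47 in L1 controls. It passed at L1 (0.80, SE 0.14, adjusted p = 0.0126) and not in adults (0.53, SE 0.17, adjusted p = 0.229). Since 182513_at was picked for a pattern like that of tag-123, its p-values are a description as well. The brighter tth-1 probe set passed at neither stage (0.77, adjusted p = 0.098 at L1, and 0.48, adjusted p = 0.695 in adults). The glutathione S-transferase genes gst-24, gst-15 and gst-14 follow gst-20 and read 0.54 (adjusted p = 0.281), 0.16 and -0.07 in adults and 0.10, -0.20 and -0.21 at L1.

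Membership among the 7 rested on the adult arrays. At L1 all 7 stayed past the threshold under every alternative that measured them. With only the arrays of 1 stage in the fit, gst-20 and F44G4.7 alone stayed past it at both stages. Without adult control array 2 or 3, or adult mutant array 2, R102.2, clip-1 and tag-123 dropped out in adults. Without adult mutant array 1, clip-1 and tag-123 dropped out, at differences of -0.98 and 0.70. Without adult mutant array 3, R102.2 and tag-123 dropped out, at -1.34 and 0.77. Over the alternatives the adult difference ran from -1.72 to -1.09 for R102.2 and from -1.29 to -0.79 for clip-1 (173748_at). For tag-123 (180161_at) it ran from 0.60 to 0.83. The direction of each genotype difference was the same under every alternative that measured the probe set, at both stages. Direction was part of the rule, and several alternatives leave the difference itself unchanged. Plain probe sets, those with names not ending in _x_at or _s_at, leave out 5 of the 9. The only probe sets of Y41E3.5, gakh-1 and gst-20 are among those left out.

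**Figure D5:**
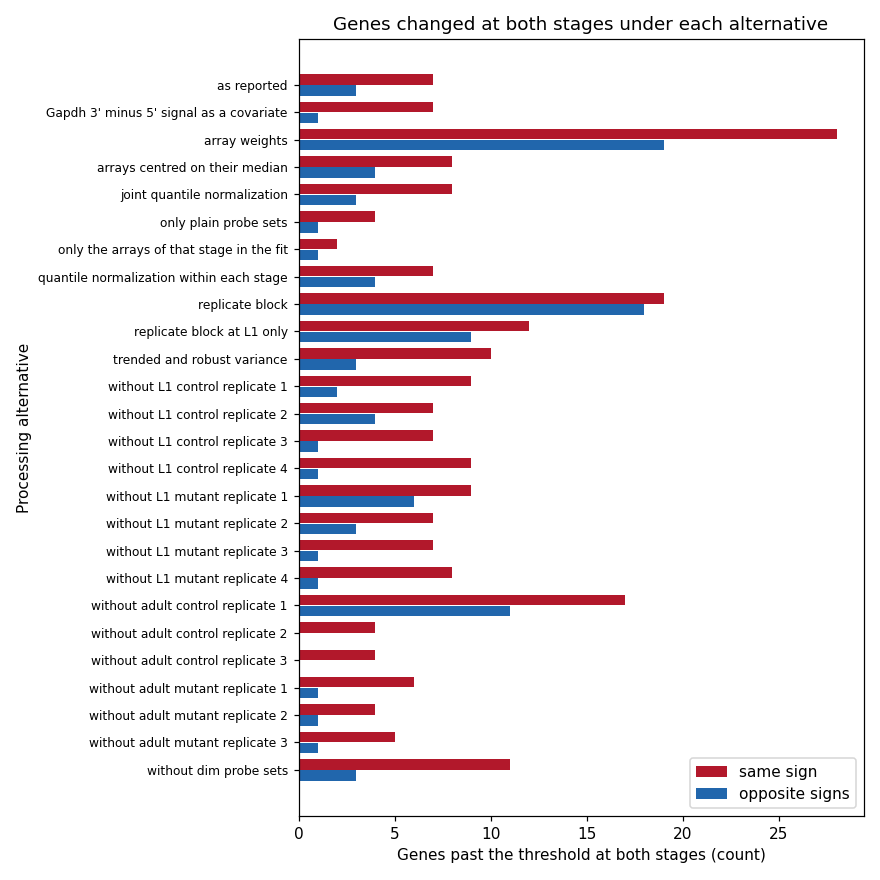
Number of genes past the threshold at both stages with the same sign and with opposite signs (bars, counts) under each processing alternative (rows). The same-sign count was 7 as reported, 17 without adult control array 1, 4 without adult control array 2 or 3, and 28 with array weights.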

How the data were processed

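The values are log2 signals per probe set, as the authors deposited them for 14 arrays; the unit was read from the values, and how background and normalization were handled is something the labels leave out. Labelling started from 6 ug of RNA, per the labels' protocols. After 77 control probe sets were left out, 22548 were tested. Of these 20766 had 1 gene symbol in the platform annotation, 887 several and 895 none listed; RefSeq held the gene identifiers of 20701 and changed 0 symbols. For each gene the probe set with the highest mean signal stood for it. limma 3.58.1 in R 4.3.3 fitted a mean for each of the 4 groups (10 residual and 4.18 prior degrees of freedom), with Benjamini-Hochberg adjustment over all tested probe sets and a two-sided threshold of 0.05. Precision is limited by the number of arrays, with a median standard error of 0.123 in adults and 0.107 at L1. The fit was tested on simulated data with independent noise on each array. That setting lacks the shared deviations of L1 arrays given below, so the simulation cannot speak to them. 0 array pairs held identical values. Same-numbered L1 mutant and control arrays deviated together (correlations across probe sets of 0.423, 0.317, 0.188 and 0.236), whereas adult ones did not all do so (0.437, 0.108 and 0.0359), so the L1 numbers were taken as pairs from the data, not from the labels. Alternatives were a replicate block, the omission of each array, 3 normalizations, a filter on dim probe sets, fits by stage, another variance model, array weights, a Gapdh 3' minus 5' covariate and plain probe sets; the block at L1 alone was added after the data were seen. The 7 genes and the gene lists were chosen with earlier results of these data known. Named genes are the members, the 3 nearest in pattern to each, genes called at both stages, up to 4 called genes of each list (where none was called, the 2 lowest p-values), called neighbours, daf-19 and daf-12; genes just outside the threshold, list genes called with the L1 block alone and the neighbours tth-1, gst-24, gst-15 and gst-14 were added after their values were seen.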

Additional observations from a re-analysis of the deposited data

Results flagged for a closer look

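The 4 L1 mutant arrays of clip-1 (173748_at) held 1 array far from the others, L1 mutant array 2 at 10, with the rest between 10.30 and 10.34; chance marks about 1 in 20 such groups. For some genes outside the 7, the mutant difference in adults minus that at L1 passed its own test in limma. These genes had been named for a small p in either genotype comparison. The tested difference is made of the same values, so the choice favoured passing. It was positive for gsto-1 (1.88, adjusted p = 0.00452), ugt-13 (2.88, adjusted p = 0.000699), sod-1 (0.76, adjusted p = 0.0208), che-3 (1.67, adjusted p = 1.26e-05), xbx-9 (1.1, adjusted p = 0.00981), ifta-1 (1.31, adjusted p = 0.00165) and ift-139 (1.03, adjusted p = 0.00493), which were lower at L1. The same difference was negative for pes-10 (-1.15, adjusted p = 0.00265), vet-6 (-1.34, adjusted p = 0.0137), skr-10 (-0.83, adjusted p = 0.0132) and skr-9 (-1.11, adjusted p = 0.0354), which were lower in adults, and for cpr-6 (-1.30, adjusted p = 0.00452), which was higher at L1.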

How the results depend on the processing

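Over 25 alternatives, 0 of 440 genotype differences of the 9 probe sets changed sign, while 10 of 211 adult minus L1 differences did, all in F44G4.7 and gakh-1, whose values lay near 0. The replicate block, the variance model and the filter on dim probe sets leave a genotype difference itself unchanged. Leaving out an array of 1 stage leaves the difference at the other stage unchanged. Many of the 440 could therefore not change sign, and a shared sign was part of the rule. Of all 651 values, 10 moved by more than 1 SD between replicates. The counts of calls depended on the processing, and the causes were not tested. As reported, 182 genes were called in adults, 208 at L1, 7 at both stages with the same sign and 3 with opposite signs. With the replicate block at both stages these counts were 328, 423, 19 and 18; with the replicate block at L1 alone they were 217, 498, 12 and 9. Array weights gave 1548 in adults, 28 with the same sign and 19 with opposite signs. With only the arrays of 1 stage in the fit, 116 were called in adults, 81 at L1, 2 with the same sign and 1 with opposite signs. Plain probe sets, which leave out 3 of the 7 genes, gave 116 in adults, 4 and 1. The Gapdh covariate gave 79 at L1 and 1 with opposite signs, and the filter on dim probe sets 11 with the same sign. Leaving out 1 array in turn gave 81 to 580 in adults, 125 to 264 at L1, 4 to 17 with the same sign and 0 to 11 with opposite signs. The adult count was 580 without adult control array 1, 81 and 86 without control arrays 2 and 3, and 93, 113 and 93 without adult mutant arrays 1, 2 and 3; at L1 it was 125 without control array 4. The adult minus L1 difference of F44G4.7 ranged from -0.25 to 0.11 and that of gakh-1 from -0.13 to 0.13. The values used here carry no detection calls, so how far a dim signal understates a difference is unknown.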
